A study of Nicotiana tabacum with 9 samples.

Results

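Transcripts of 3 tobacco regulator genes were followed in bicellular pollen, the stage at which a grain holds a vegetative and a generative cell. They were *GA2ox3* (GeneID:107792942), which encodes a gibberellin 2-oxidase, *mybAS2* (GeneID:107824514), which encodes an anther MYB factor, and *MPK11* (GeneID:107814475), which encodes a MAP kinase. These 3 of the 76785 genes in each expression table were taken by their identifiers. They had been chosen by their FPKM in these same libraries, across the 3 genotypes. Their levels and differences are therefore given as a description, with no test. All 3 passed the filter on low values and were among the 27836 genes tested.

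RNA-seq was carried out on pollen of *N. tabacum*, with 9 libraries: 3 of wild type (WT) plants, 3 of plants silenced for *ATG2* and 3 of plants silenced for *ATG5*. ATG2 and ATG5 are needed to form the autophagosome, the double membrane that carries cell material to the vacuole, and the comparisons ask how pollen transcripts differ when either gene is silenced by RNAi. WT was cv. Petite Havana SR1, and all plants grew in a glasshouse under 12 h of daylight at 25 °C. The promoter and sequence of the RNAi constructs and the number of lines are not given in the sources used here. Replicates are called independent, but which plants each library came from is not stated, so the spread between libraries of a genotype may be in part technical. Values are FPKM, the fragments of a gene relative to its transcript length and to all mapped fragments of the library, so levels of different genes can be compared. No read counts were used, and the counting error behind a value is unknown.

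The targeted genes were low in the libraries named for them. *ATG2* was at 1.04 ± 0.14 FPKM in WT and at 0.233 ± 0.058 in *ATG2*-silenced pollen, and *ATG5* was at 1.38 ± 0.299 in WT and at 0.170 ± 0.066 in *ATG5*-silenced pollen (SD, n = 3). *ATG2* was also at 0.60 ± 0.044 FPKM in *ATG5*-silenced pollen. The 9 libraries summed to between 904845 and 1030772 FPKM. Dividing each library by the median of its gene ratios (median-of-ratios scaling, 14192 genes) needed factors of 0.978 to 1.04 in WT, 1.06 to 1.11 in *ATG2*-silenced and 0.751 to 0.791 in *ATG5*-silenced pollen. A level in *ATG5*-silenced pollen thus depends on the scaling more than one in the other groups, and both scales are given below. The 9 pollen genes with a name summed to 28922 to 30615 FPKM in WT, 31579 to 32442 in *ATG2*-silenced and 42356 to 46353 in *ATG5*-silenced libraries. They did not move together, since 3 of the 8 tested were higher (*ntp201* and *ntp805* among them) and 4 lower (the profilin genes *PRO1* and *PRO2* among them) in *ATG5*-silenced pollen against WT by the limma adjusted p, beside 27.1% and 24.9% of all genes tested. The 17 green tissue genes with a name summed to 3 to 6.82, 1.1 to 2.2 and 0.29 to 1.14 FPKM in the same order. *TKPR1*, a reductase gene of the tapetum of the anther wall that was chosen after its values were seen, lay between 0 and 0.1 FPKM in every library. The part of these markers in the differences below was not tested.

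Gibberellins are growth hormones made by a chain of oxidases and switched off by GA 2-oxidases, which hydroxylate the hormone or its precursors so that they no longer act. They are needed for stamen and pollen development in many plants. MYB factors are DNA-binding regulators, and *mybAS2* belongs to a pair of tobacco MYB genes described in anthers as regulators of phenylalanine ammonia-lyase, the entry enzyme of the phenylpropanoid pathway. MAP kinases are the last of a chain of protein kinases that pass signals from receptors to their targets, and in *Arabidopsis* MPK11 is a close relative of MPK4.

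*GA2ox3*, the gene of the hormone-inactivating enzyme, was found at 13.44, 10.21 and 13.6 FPKM in WT replicates 1 to 3. It was at 13.4, 13.7 and 16.8 FPKM in the *ATG2*-silenced libraries and at 32.87, 34 and 33.23 FPKM in the *ATG5*-silenced libraries. WT and *ATG2*-silenced pollen overlapped, with WT replicate 2 the lowest and *ATG2*-silenced replicate 3 the highest of these 6 libraries, whereas all *ATG5*-silenced libraries lay far above them. The group means were 12.4 ± 1.91, 14.6 ± 1.88 and 33.4 ± 0.577 FPKM (SD, n = 3), so *ATG5*-silenced pollen held 2.69 times the WT level as deposited and 3.47 times after scaling. Taking single libraries as deposited, the ratio of *ATG5*-silenced to WT pollen lay between 2.42 and 3.33. On the log2 scale after scaling and adding 0.5 FPKM, the difference was 1.76 (standard error 0.12, 95% interval 1.501 to 2.03) for *ATG5*-silenced against WT. It was 0.11 (standard error 0.12, 95% interval -0.16 to 0.37) for *ATG2*-silenced against WT. The intervals given for the 3 genes take no account of their choice by these same values, and none is read as a test. In bulk pollen, a change in the share of cells that hold a transcript and a change in the transcript per cell cannot be told apart.

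*mybAS2*, the anther MYB gene, followed the same order of genotypes. Its levels were 15.91, 15.83 and 12.5 FPKM in WT, 14.7, 16.9 and 15.3 FPKM in *ATG2*-silenced and 29.04, 31.27 and 34.39 FPKM in *ATG5*-silenced replicates 1 to 3. Again WT and *ATG2*-silenced pollen overlapped and every *ATG5*-silenced library lay above both. The means were 14.7 ± 1.95, 15.6 ± 1.14 and 31.6 ± 2.69 FPKM (SD, n = 3), a ratio of *ATG5*-silenced to WT pollen of 2.14 as deposited and 2.75 after scaling. Between single libraries as deposited this ratio lay between 1.83 and 2.75. The log2 difference of *ATG5*-silenced against WT was 1.44 (standard error 0.12, 95% interval 1.17 to 1.71), and that of *ATG2*-silenced against WT was -0.04 (standard error 0.12, 95% interval -0.31 to 0.23).

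*MPK11*, the MAP kinase gene, differed in the other line. It was at 12.62, 12.86 and 12.7 FPKM in WT, at 6.5, 6.1 and 7.2 FPKM in *ATG2*-silenced and at 13.31, 12.97 and 12.54 FPKM in *ATG5*-silenced replicates 1 to 3. As deposited, all *ATG2*-silenced libraries lay below the others, and WT and *ATG5*-silenced pollen overlapped. The means were 12.7 ± 0.122, 6.60 ± 0.557 and 12.9 ± 0.386 FPKM (SD, n = 3), so that *ATG2*-silenced pollen held 51.9% of the WT level. Scaling separated the WT and *ATG5*-silenced libraries, which then lay at 12.2 to 13.1 and 15.9 to 17.7 scaled FPKM, with *ATG2*-silenced pollen at 5.49 to 6.47. The log2 difference of *ATG2*-silenced against WT was -1.02 (standard error 0.089, 95% interval -1.22 to -0.82). That of *ATG5*-silenced against WT was 0.38 (standard error 0.089, 95% interval 0.18 to 0.58) after scaling and 0.023 as deposited. For this gene the size of the difference from WT, and whether the libraries overlap in FPKM, thus depend on the scaling.

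**Figure D1:**
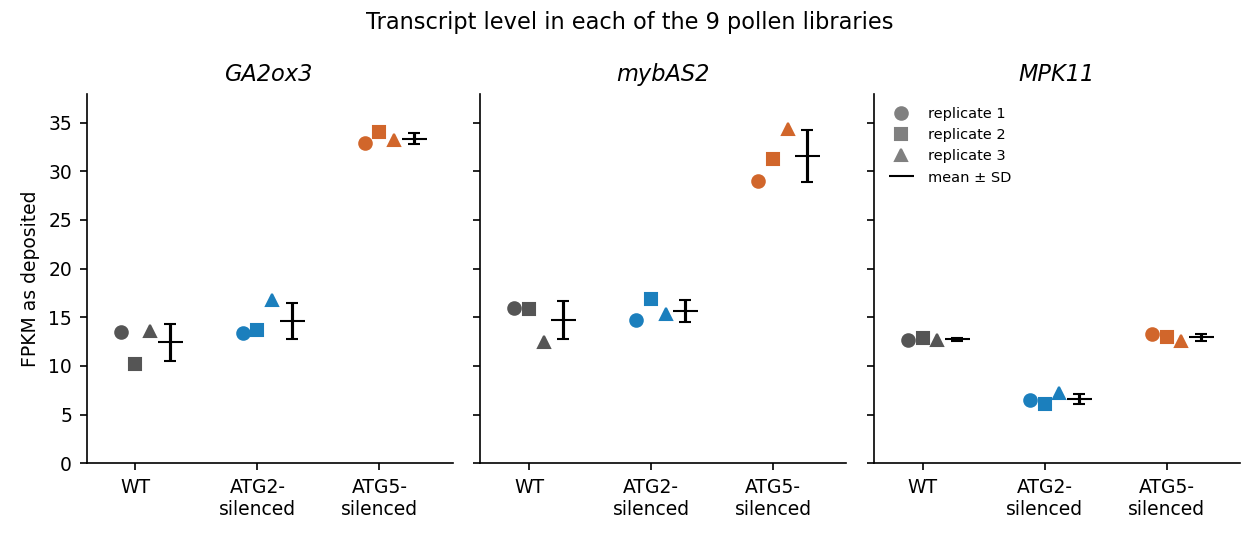
FPKM as deposited (y axis) of *GA2ox3*, *mybAS2* and *MPK11* in each library of the 3 genotypes, with a symbol per replicate and the mean ± SD of 3 libraries in black. *GA2ox3* and *mybAS2* stand at 29.04 FPKM or more in *ATG5*-silenced pollen and at 16.9 FPKM or less elsewhere, whereas *MPK11* is at 6.1 to 7.2 FPKM in *ATG2*-silenced and above 12.5 FPKM in all other libraries.

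A gene was called different at an adjusted p under 0.05 (limma, Benjamini-Hochberg over all genes tested) and a fold above 2 or below 0.5. Called genes made up 0.639% of all genes tested in *ATG2*-silenced against WT, 22.3% in *ATG5*-silenced against WT and 24% in *ATG5*-silenced against *ATG2*-silenced pollen. By fold alone, 1 of the 3 genes (*MPK11*) was past the limit in the first comparison, 2 (*GA2ox3* and *mybAS2*) in the second and all 3 in the third. Since these contrasts chose the genes, nothing is read from that. The *MPK11* difference in *ATG2*-silenced pollen stood close to the 2-fold limit. It was below 2-fold, at -0.90, with FPKM as deposited, at -0.95 with libraries rescaled to equal totals, at -0.97 with a pseudocount of 1 and at -0.96 without *ATG2*-silenced replicate 2. The *mybAS2* difference between the silenced lines was 1.48 after scaling and 0.99 as deposited, and that of *MPK11* was 1.40 and 0.92.

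The place of these differences among all genes can be given in the same way. The *MPK11* difference in *ATG2*-silenced pollen was such that 1.19% of the genes tested had a more negative one. In *ATG5*-silenced pollen, 92.8% of the genes had a smaller log2 difference from WT than *GA2ox3* and 90.0% a smaller one than *mybAS2*, so large increases were not rare there. In all, 3405 genes (12.2% of those tested) were called higher in *ATG5*-silenced pollen than in both other groups, the order that *GA2ox3* and *mybAS2* showed. Genes called higher made up 14.6% against WT and 14.3% against *ATG2*-silenced pollen. The order of *MPK11* was much less frequent. Of the 44 genes called lower in *ATG2*-silenced pollen than in WT (0.158% of those tested), 20 (0.0718%) were also called higher in the *ATG5*-silenced line than in the *ATG2*-silenced one. Both calls share the *ATG2*-silenced libraries, and the first limits the count to 44. Nothing about *MPK11* is therefore read from how rare this order was.

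**Figure D2:**
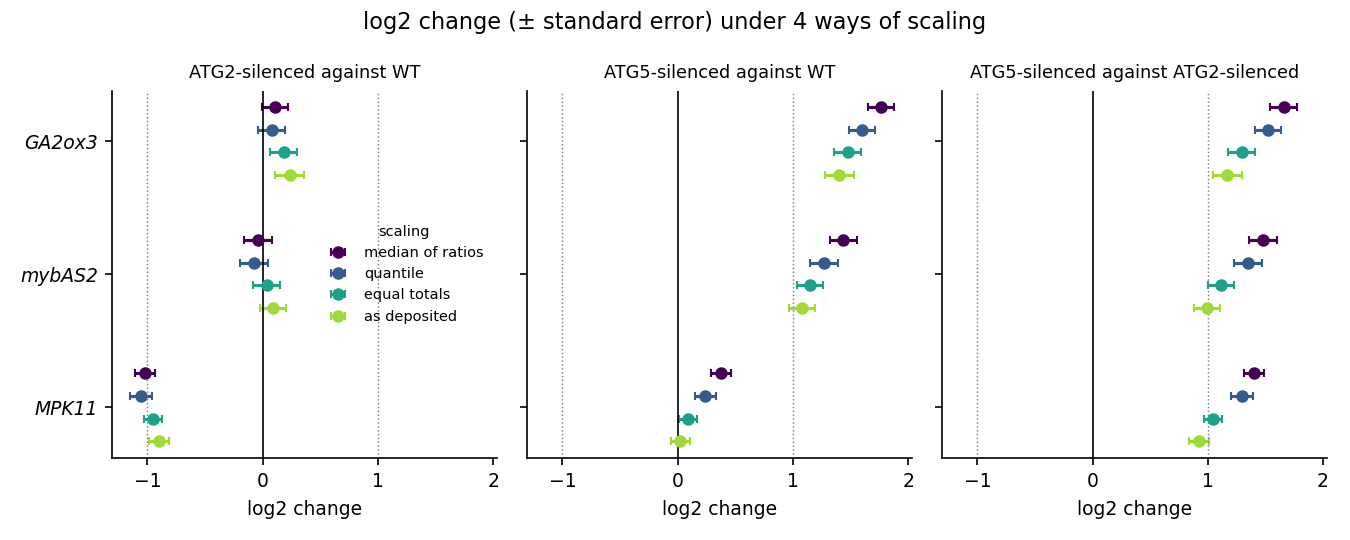
log2 change (x axis, with its standard error) of the 3 genes in each comparison under 4 ways of scaling the libraries, with dotted lines at 2-fold. Points for *GA2ox3* and *mybAS2* move to the left from median-of-ratios scaling to FPKM as deposited in both comparisons with *ATG5*-silenced pollen, from 1.76 to 1.40 and from 1.44 to 1.08 against WT, and *MPK11* goes from 0.38 to 0.023 there.

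Rank within a library does not depend on its scaling. The percentile also rests on how many genes were above 0, which was 41279, 40397 and 38695 in WT replicates 1 to 3. Of these, replicate 3 has values of 1 decimal and the others of 2. *GA2ox3* stood at percentile 85.0 to 87.5 of the detected genes in WT, 85.5 to 87.3 in *ATG2*-silenced and 93.3 to 93.5 in *ATG5*-silenced libraries. *mybAS2* stood at 85.5 to 88.8, 86.5 to 87.4 and 92.9 to 93.5 in the same order. Both genes were thus well expressed in all genotypes, and higher in rank in *ATG5*-silenced pollen. *MPK11* stood at 85.7 to 87.0 in WT, at 76.4 to 78.4 in *ATG2*-silenced and at 87.1 to 88.1 in *ATG5*-silenced pollen. By rank it was lowest in *ATG2*-silenced pollen, and the *ATG5*-silenced range lay just above that of WT without overlap.

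Ratios between the genes within a library are likewise free of scaling. *GA2ox3* over *mybAS2* was 0.645 to 1.09 in WT, 0.811 to 1.10 in *ATG2*-silenced and 0.966 to 1.13 in *ATG5*-silenced libraries. These ranges overlapped, with the lowest ratio in WT replicate 2. *GA2ox3* over *MPK11* was 0.977 ± 0.158 in WT, 2.21 ± 0.139 in *ATG2*-silenced and 2.58 ± 0.0970 in *ATG5*-silenced pollen (SD, n = 3). Here the groups did not overlap, since the highest *ATG2*-silenced ratio was 2.33 and the lowest *ATG5*-silenced ratio 2.47. *mybAS2* over *MPK11* was 1.16 ± 0.152, 2.39 ± 0.340 and 2.45 ± 0.282 (SD, n = 3). Both silenced lines lay above WT in this ratio and overlapped each other, through a lower denominator in *ATG2*-silenced and a higher numerator in *ATG5*-silenced pollen.

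**Figure D3:**
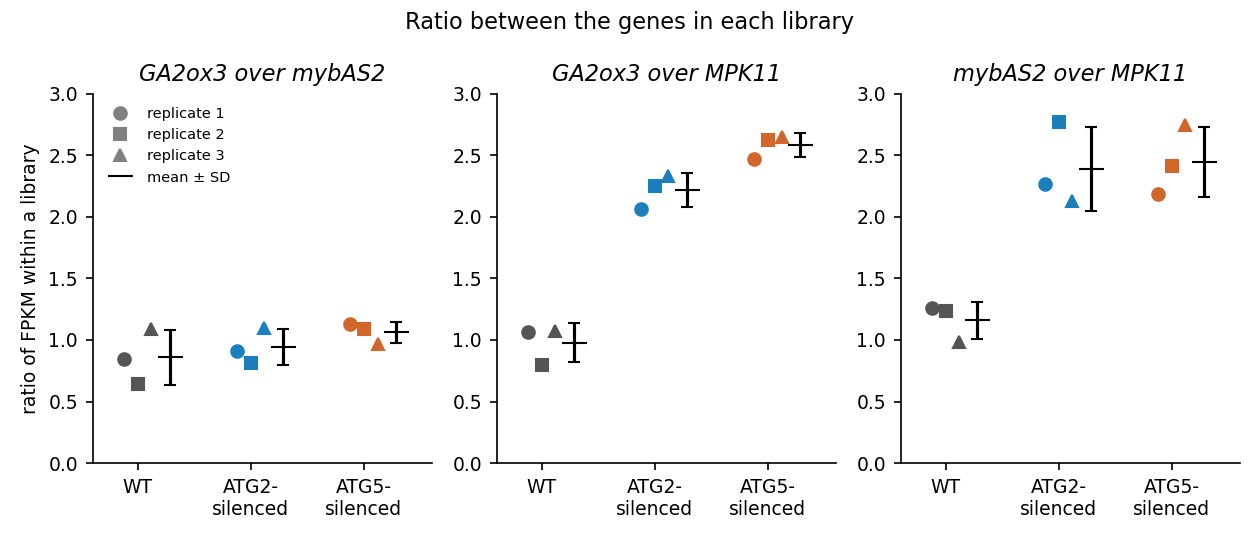
Ratio of the FPKM of 2 genes within each library (y axis) by genotype, with a symbol per replicate and the mean ± SD in black. *GA2ox3* over *mybAS2* stays between 0.645 and 1.13 in all 9 libraries, whereas both ratios to *MPK11* are at most 1.26 in WT and at least 2.06 in either silenced line.

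The spread between libraries of a genotype was set beside that of other genes. On the log2 scale its SD was 0.148 for *GA2ox3* and 0.156 for *mybAS2*, against a median of 0.132 and 0.131 over the 1000 genes of most similar level. That of *MPK11* was 0.0847, and 90% of the 1000 genes of similar level spread more. Over the 9 libraries, the log2 levels of *GA2ox3* and *mybAS2* had a Pearson correlation of 0.96, which shares the step between genotypes. It was -0.38 once the group means were removed and -0.39 over the 6 WT and *ATG2*-silenced libraries. Both genes were chosen by their FPKM across the genotypes, so the 0.96 is not read as a likeness. Correlations over so few libraries cannot settle whether the 2 genes vary together within a genotype. *MPK11* had correlations of 0.66 with *GA2ox3* and 0.71 with *mybAS2* over 9 libraries, and of 0.27 and -0.04 after the group means were removed.

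*GA2ox3* was the only gene above 1 FPKM among the gibberellin genes with a name. Of these 10 genes, 6 were listed at 0 in every library, namely the GA 2-oxidase genes *GA2ox2*, *GA2ox4* and *GA2ox5*, the GA 20-oxidase genes *Ntc12* and *Ntc16*, and *GA3ox2* of the last activating step. *GA2ox1* and *Nty*, another gene of that step, were listed above 0 in 1 library each, at 0.1 and 0.06 FPKM. *rsg*, a bZIP activator of gibberellin synthesis genes in tobacco, was at 0.25 to 0.59 FPKM. None of these 9 passed the filter, so they give no test beside *GA2ox3*, which supplied 94.0 to 99.3% of the summed FPKM of the list. Most tobacco genes carry no name in the reference, so further gibberellin genes may be among those without one.

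*mybAS2* was likewise the only gene above 1 FPKM among 10 MYB genes with a name. It made up 86.2 to 89.4% of their summed FPKM in WT, 87.5 to 89.4% in *ATG2*-silenced and 95.8 to 96.6% in *ATG5*-silenced libraries. MYB genes without a name in the reference are not in the list, so these shares hold among the 10 named genes alone. Besides *mybAS2*, 2 of the genes were tested, *NtmybA1* and *NtmybA2*, which encode MYB factors of the tobacco cell division cycle. *NtmybA1* was at 0.99, 0.91 and 0.9 FPKM in WT, 0.9, 0.9 and 1 FPKM in *ATG2*-silenced and 0.31, 0.35 and 0.39 FPKM in *ATG5*-silenced pollen. All *ATG5*-silenced libraries lay below all others, and the gene fell by 0.59 on the log2 scale against WT (standard error 0.13, limma adjusted p = 0.00411). Genes lower at this threshold of p made up 24.9% of all tested. *NtmybA2*, at 0.62 ± 0.08 FPKM in WT and 0.58 ± 0.125 in *ATG5*-silenced pollen (SD, n = 3), did not pass, with a log2 difference of 0.15 after scaling (standard error 0.15, limma adjusted p = 0.427). In *ATG2*-silenced pollen neither passed in limma, and neither had an unadjusted p under 0.05.

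The phenylpropanoid pathway makes lignin precursors, flavonols and sporopollenin components. Of its 25 genes with a name, 8 were listed at 0 in every library and 3 were tested. *CCoAMT-6*, a gene of a caffeoyl-CoA methyltransferase of monolignol synthesis, was at 7.53, 19.27 and 5.8 FPKM in WT, 9.4, 8.4 and 13.5 FPKM in *ATG2*-silenced and 2.99, 3.32 and 1.52 FPKM in *ATG5*-silenced pollen. WT replicate 2 stood high, and the *ATG5*-silenced libraries lay below all others. The gene was called lower in *ATG5*-silenced pollen with a log2 change of -1.43 (standard error 0.45, limma adjusted p = 0.0279), and 7.75% of all genes were called lower in that comparison. Without WT replicate 2 the change was -0.93, below 2-fold (limma adjusted p = 0.0477). The call was also lost without *ATG5*-silenced replicate 3, at -1.11 (limma adjusted p = 0.0922), and reached 0.0501 when the 2 groups were fitted alone. *NtFLS*, a flavonol synthase gene, was at 1.76, 0.68 and 0.5 FPKM in WT and at 0.19 to 0.21 in *ATG5*-silenced pollen, a fall of 0.87 on the log2 scale (standard error 0.31, limma adjusted p = 0.0431). It did not pass without any 1 of the *ATG5*-silenced libraries, with limma adjusted p of 0.0863 to 0.0899, nor with a pseudocount of 0.1 (0.0873), without a filter (0.0633) or with the 2 groups fitted alone (0.0548). In *ATG2*-silenced pollen it was at 0.3, 0 and 0.3 FPKM, which did not pass (log2 difference -1.05, limma adjusted p = 0.13). *pal4*, the gene of a phenylalanine ammonia-lyase, was at 0.80 ± 0.173, 1.23 ± 0.306 and 0.54 ± 0.203 FPKM in WT and in the *ATG2*- and *ATG5*-silenced lines (SD, n = 3) and passed in none of the 3 comparisons. Between the silenced lines it did pass as lower in *ATG5*-silenced pollen with FPKM as deposited (-0.74, limma adjusted p = 0.0122), with equal totals (-0.68, limma adjusted p = 0.0245) and with the replicate block (-0.45, limma adjusted p = 0.0398). In *ATG5*-silenced pollen, where *mybAS2* was high, 0 of the 3 tested genes of the pathway were higher and 2 were lower by the adjusted p, and by the unadjusted p likewise. Over all genes tested, 27.1% were higher and 24.9% lower by the adjusted p, so a count over 3 genes says little.

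**Figure D4:**
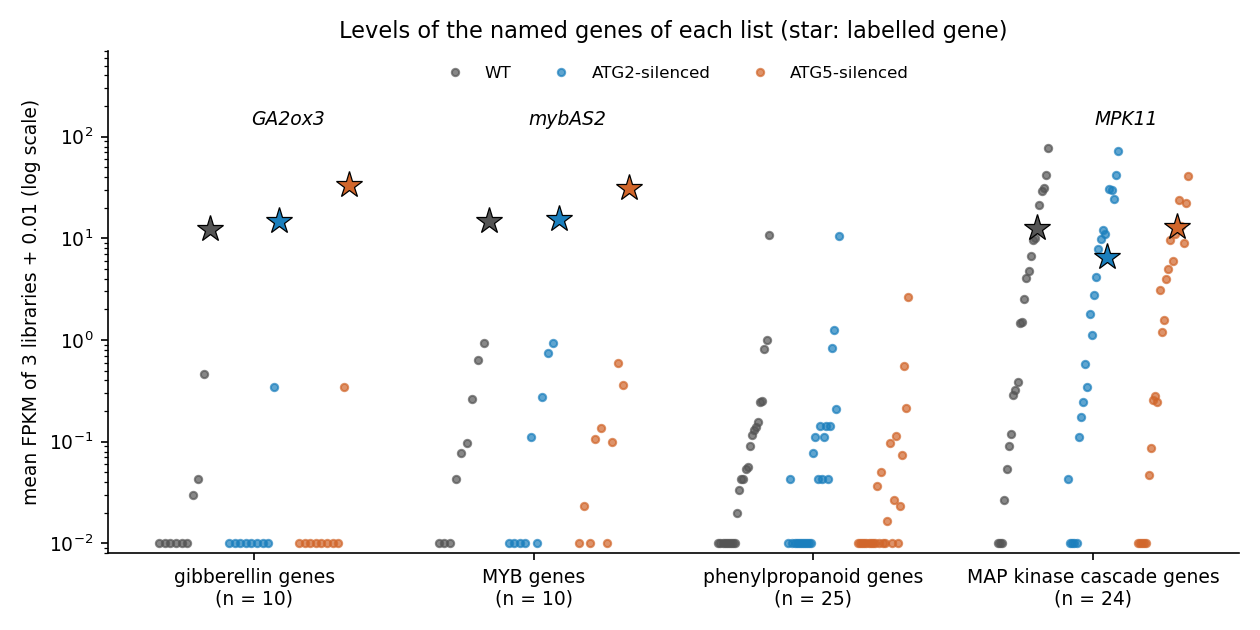
Mean FPKM of 3 libraries plus 0.01 (y axis, log scale) of each gene with a name in 4 lists, by genotype, with stars for *GA2ox3*, *mybAS2* and *MPK11* and points at the lowest level for genes listed at 0. *GA2ox3* and *mybAS2* lie above every other gene of their lists in all genotypes, whereas *MPK11* lies among several MAP kinase genes of similar level.

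*MPK11*, by contrast, was 1 of many MAP kinase cascade genes expressed in this pollen. Of the 24 with a name, 22 were above 0 in at least 1 library and 15 were tested, and *MPK11* was the 6th by its WT mean. Above it stood *MPK8* (77.2 ± 3.46 FPKM), *MPK17* (41.6 ± 6.89), the kinase kinase gene *MEK2* (31.5 ± 3.53), *MPK16* (29.4 ± 3.04) and *MPK12* (21.3 ± 1.06). Next below were *NtMKP1* (10.1 ± 1.04), which encodes a phosphatase that inactivates MAP kinases, and *MPK13* (9.66 ± 0.596; all SD, n = 3). *NtMKP1* and *MPK13* differed by less than their spread, as did *MEK2* and *MPK16*, while *MPK11* lay apart from both of its neighbours in WT. *MPK17* and *NtMKP1* were named after their values were seen. In *ATG2*-silenced pollen *MPK11* was number 10 of the list and in *ATG5*-silenced pollen number 5. It supplied 4.69 to 5.15% of the summed FPKM of the 24 genes in WT, 2.31 to 2.84% in *ATG2*-silenced and 7.19 to 8.79% in *ATG5*-silenced libraries. The sums themselves were 245 to 271, 253 to 264 and 151 to 174 FPKM, so the larger share in *ATG5*-silenced pollen goes with a smaller sum as deposited.

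In *ATG2*-silenced pollen, none of the other 14 MAP kinase cascade genes tested passed the adjusted p in limma, in which 1.08% of all genes passed. At an unadjusted p under 0.05, 2 were higher and 2 lower. The median log2 difference of the 14 was 0.00, against 0.03 over all genes tested. *MEK2*, which encodes the tobacco kinase upstream of the stress MAP kinases SIPK and WIPK, was at 33.69, 33.34 and 27.4 FPKM in WT and 23.3, 23.9 and 26 FPKM in *ATG2*-silenced pollen. These libraries did not overlap, but the log2 difference of -0.49 (standard error 0.12, limma adjusted p = 0.097) did not pass over all genes. It passed without WT replicate 3, at -0.61 (limma adjusted p = 0.0332). *MPK12*, at 21.3 ± 1.06 FPKM in WT and 30.8 ± 2.10 in *ATG2*-silenced pollen (SD, n = 3), had a log2 difference of 0.39 (standard error 0.10, limma adjusted p = 0.0975), which did not pass either.

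In *ATG5*-silenced pollen, the cascade genes went both ways. By the adjusted p, 4 of the 14 were higher (*MPK9*, *NtSIPK*, *MPK12* and *NtMKP1*) and 5 lower (*MEK2*, *MPK16*, *MPK8*, *MPK17* and *MPK13*), beside 27.1% of all genes higher and 24.9% lower. With FPKM as deposited, or rescaled to equal totals, 2 were higher and 6 lower, and with quantile normalization 4 and 6. *MEK2* was at 7.55, 9.3 and 10.01 FPKM in *ATG5*-silenced pollen, below every other library, and fell by 1.41 on the log2 scale against WT (standard error 0.12, limma adjusted p = 2.29e-05). *MPK9* rose from 1.47 ± 0.13 to 3.09 ± 0.0416 FPKM (SD, n = 3), a log2 change of 1.19 (standard error 0.14, limma adjusted p = 0.000153). After median-of-ratios scaling these were the only 2 of the 14 that also passed the fold. *MPK9* did not pass the fold under any of the 3 other scalings. By mean level *MEK2* was number 3 of the list in WT and number 8 in *ATG5*-silenced pollen.

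The other cascade genes that passed changed by less than 2-fold after median-of-ratios scaling. As deposited, and with equal totals, 2 of the 14 passed both p and fold as lower and 0 as higher. *MPK16* went from 29.4 ± 3.04 to 13.3 ± 0.650 FPKM (SD, n = 3), a log2 change of -0.75 after scaling (limma adjusted p = 3.49e-05). *MPK8*, the most abundant, went from 77.2 ± 3.46 to 40.7 ± 5.82 FPKM (SD, n = 3), a change of -0.56 (limma adjusted p = 0.000865). *MPK13* changed by -0.30 (limma adjusted p = 0.0196), a call lost without WT replicate 1 (0.0534) or without *ATG5*-silenced replicate 1 (0.0713). On the higher side, *NtSIPK*, the salicylic acid-induced kinase gene of tobacco, went from 6.72 ± 0.647 to 9.55 ± 0.935 FPKM (SD, n = 3), a change of 0.83 (limma adjusted p = 0.000294). *MPK12* changed by 0.50 (limma adjusted p = 0.00265), but by 0.14 with FPKM as deposited (limma adjusted p = 0.321) and by 0.21 with equal totals (limma adjusted p = 0.145). *MPK11*, whose log2 difference from WT was 0.38 after scaling and 0.023 as deposited, lay within the range of these genes.

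Between the 2 silenced lines, 3 of the 14 were higher and 5 lower in *ATG5*-silenced pollen by the adjusted p, beside 26.8% and 27.5% of all genes. As deposited, 1 was higher and 8 lower. *MPK11* was higher there by 1.40 on the log2 scale (standard error 0.089, 95% interval 1.20 to 1.60), above the 1.08 of *MPK9*, the next among the genes of the list. *MPK11* was chosen by its FPKM in these same libraries and the other cascade genes were not. Its place above them is therefore not read as a result, and no test of *MPK11* against them was made.

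**Figure D5:**
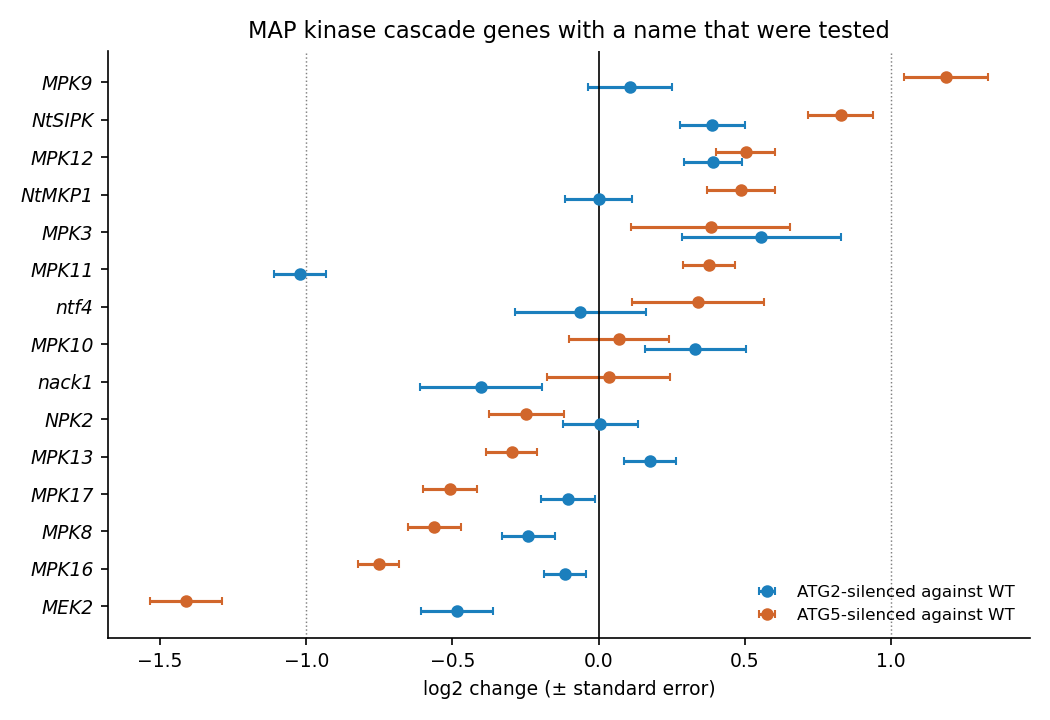
log2 change against WT (x axis, with its standard error) of the 15 MAP kinase cascade genes with a name that were tested, in *ATG2*-silenced and *ATG5*-silenced pollen, with dotted lines at 2-fold. *MPK11* is at -1.02 in *ATG2*-silenced pollen, where the next lowest point is *MEK2* at -0.49, and at 0.38 in *ATG5*-silenced pollen, where *MEK2* is at -1.41 and *MPK9* at 1.19. *MPK11* was chosen by its FPKM in these libraries, so its place among the points is not read as a result.

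Genes of like pattern were sought among the 248 named genes that reached 5 FPKM in a group mean, by the Pearson correlation of log2 levels over the 9 libraries, all of which share the step between genotypes. For *GA2ox3* the closest were *T407* (0.988), *BBR/BPC1* (0.981), which encodes a GAGA-binding factor, and the pollen gene *ntp201* (0.976). *T407* was at 5.35 ± 0.959, 6.63 ± 0.777 and 20.7 ± 0.691 FPKM, and *ntp201* at 5430 ± 560, 5736 ± 403 and 15584 ± 593 FPKM in WT and in the *ATG2*- and *ATG5*-silenced lines (SD, n = 3). Each had the order of *GA2ox3*, at levels far apart. For *mybAS2* they were *cul1B* (0.984), which encodes a cullin of ubiquitin ligases, *TAF-3* (0.982) and *FNR* (0.975), which encodes a ferredoxin-NADP reductase. *cul1B* was at 10.6 ± 0.251, 10.8 ± 0.404 and 16.6 ± 0.615 FPKM (SD, n = 3), the same order with a smaller step. As many as 28 and 29 of the named genes reached 0.9 with *GA2ox3* and *mybAS2*, and 6 with *MPK11*. The closest to *MPK11* were *NtTE* (0.919), *GNL1a* (0.915), which encodes an exchange factor of membrane traffic, and another cullin gene, *cul1A* (0.913). *NtTE* was at 130 ± 7.25, 121 ± 2.86 and 124 ± 1.88 FPKM (SD, n = 3), so it shared the order of *MPK11* after scaling but not the size of its step.

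The genes beside the 3 on the chromosome were looked at in the same fit. In the reference assembly K326 (ASM71507v2), which is not the Ntab-TN90 assembly of the expression tables, the 4 nearest measured genes around each gene, 2 per side, were looked up. Of these, 2 were tested for *GA2ox3*, 2 for *mybAS2* and 1 for *MPK11*. None of these 5 was called in any of the 3 comparisons by limma. The 1 beside *MPK11* passed the adjusted p without the fold in both comparisons with *ATG5*-silenced pollen. The other 4 had no unadjusted p under 0.05. In that reference *MPK11* has 8 transcripts and *GA2ox3* and *mybAS2* have 1 each. There *MPK11* overlaps 1 other protein-coding gene, which was not among the genes measured. Tobacco carries 2 ancestral genomes, and reads of near-identical copies may have been shared out between genes by the authors' quantification, so that a level may hold reads of a copy.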

How the data were processed

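Reads were cleaned by the authors (SOAPnuke), aligned to Ntab-TN90 by HISAT2 and Bowtie 2, and turned into gene levels by RSEM, with versions not given in the sources used here. The deposited values are FPKM, 1 table per library, with 1 line per table that names no gene and was left out. WT replicate 3 and all *ATG2*-silenced libraries have 1 decimal and the rest have 2, which limits genes of low level. No counts were analysed, so the DESeq2 test of the study was not run.

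FPKM were divided by median-of-ratios factors from 14192 genes that exceed 1 FPKM in every library, and log2 was taken after adding 0.5. On this scale the change of low genes is understated. The 27836 genes that reached 0.5 FPKM in 3 or more of the 9 libraries entered 1 limma fit (lmFit, eBayes with trend and robust, two-sided p, Benjamini-Hochberg over all genes tested). R 4.3.3, limma 3.58.1, statmod 1.5.0, jsonlite 2.0.0, Python 3.11.15, matplotlib 3.10.9 and pandas 2.3.3 were used, and the fit was tested on simulated data.

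The 3 genes and the gene lists were chosen with earlier results of these data known. Lists were made by matching gene names of the reference, where 1073 identifiers have a name and 450 of the genes tested do. 53952 identifiers were found in it. Names that matched by chance were removed by hand from the gibberellin, green tissue and anther wall lists, which left the last empty. Named were the 3 genes, *ATG2* and *ATG5*, from every list up to 4 genes of lowest p in a comparison, and the 3 named genes most correlated with each. Of the marker lists mainly sums are given. Copies, protein families and promoters of the genes were planned but not analysed here for want of sequences. Alternatives were other pseudocounts, filters and scalings, equal decimals, a replicate block, the compared groups alone, and each library left out in turn.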

Additional observations from a re-analysis of the deposited data

Results flagged for a closer look

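Between the silenced lines 9 genes were flagged as differing, *MPK11* without a test. This is the direct comparison of the effects of silencing *ATG2* and *ATG5*, since both share the WT libraries. *MPK17* (log2 change -0.40, limma adjusted p = 0.0057) and *NtMKP1* (0.49, limma adjusted p = 0.00642) also passed there but were not flagged. For *MPK11* all *ATG2*-silenced libraries lay below and all *ATG5*-silenced libraries above WT after scaling, with a log2 difference of 1.40 between the lines. This difference was not tested, and as deposited the *ATG5*-silenced and WT libraries overlapped.

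For the other 8 flagged genes, the difference between the lines passed the limma adjusted p. So did 26.8% of all genes tested as higher and 27.5% as lower, and most of these genes had been named for a low p. In *ATG5*-silenced against *ATG2*-silenced pollen the log2 change was -0.51 for *NtmybA1*, -1.40 for *CCoAMT-6*, -0.93 for *MEK2*, -0.47 for *MPK13*, -0.64 for *MPK16* and -0.32 for *MPK8*. It was 1.08 for *MPK9* and 0.44 for *NtSIPK*. The *CCoAMT-6* call was lost without either of *ATG2*-silenced replicates 1 and 3 or *ATG5*-silenced replicates 1 and 3 (limma adjusted p of 0.051 to 0.0943). The *MPK8* call was lost without *ATG2*-silenced replicate 1 or *ATG5*-silenced replicate 1 or 2 (0.056 to 0.0635), and that of *NtSIPK* with FPKM as deposited or rescaled to equal totals (0.806 and 0.60).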

How the results depend on the processing

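The log2 differences of the 3 genes that involve *ATG5*-silenced pollen moved with the scaling and kept their sign. The small differences in *ATG2*-silenced against WT did turn, for *mybAS2* from -0.040 to 0.087 as deposited and 0.036 with equal totals, and between -0.18 and 0.026 without 1 library, and for *GA2ox3* from 0.11 to -0.015 without WT replicate 2. With FPKM as deposited, with equal totals and with quantile normalization, *ATG5*-silenced against WT gave 1.40, 1.47 and 1.60 for *GA2ox3*, 1.08, 1.15 and 1.27 for *mybAS2*, and 0.023, 0.092 and 0.24 for *MPK11*. The median over all genes was then -0.30, -0.25 and -0.17, against -0.03 after median-of-ratios scaling. *ATG5*-silenced against *ATG2*-silenced gave 1.17 and 1.29 for *GA2ox3*, 0.99 and 1.11 for *mybAS2*, and 0.92 and 1.04 for *MPK11* as deposited and with equal totals, and 1.30 for *MPK11* with quantile normalization. The median over all genes was -0.43, -0.35 and -0.15. *MPK11* in *ATG2*-silenced against WT gave -0.90 as deposited, where the median was 0.13. The genes called higher made up 65.3% of those called in *ATG5*-silenced against WT, and 41.9%, 46.2% and 53.6% with the 3 other scalings, 59.7% between the silenced lines, and 30.0%, 36.3% and 51.8%.

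Leaving out a library moved the differences of *GA2ox3* and *mybAS2* against WT in *ATG5*-silenced pollen to between 1.64 and 1.83 and between 1.29 and 1.502, and that of *MPK11* in *ATG2*-silenced pollen to between -1.07 and -0.96. The called genes of *ATG2*-silenced against WT numbered 178, and 54 to 322 without 1 library, 322 without WT replicate 3, 54 to 89 without another WT or an *ATG2*-silenced library and 152 to 215 without an *ATG5*-silenced one. Some other named genes turned direction. Between the silenced lines, *MPK12* turned to -0.38 as deposited (limma adjusted p = 0.0197), -0.25 with equal totals and -0.037 with quantile normalization, *NtSIPK* to -0.037 as deposited, and *NtmybA2* to -0.197 as deposited and -0.13 with equal totals. Without 1 library *NtmybA2* was at -0.010 to 0.19 there and *NtFLS* at -0.028 to 0.295. In *ATG5*-silenced against WT, *NtmybA2* turned to -0.056 as deposited and -0.018 with equal totals, and *pal4* was at -0.27 to 0.060 without 1 library. In *ATG2*-silenced against WT, *CCoAMT-6* turned to 0.10 as deposited and 0.050 with equal totals and was at -0.39 to 0.48 without 1 library, *MPK16* turned to 0.014 as deposited, and *MPK9* was at -0.030 to 0.18 without 1 library. Apart from *MPK12* as deposited, none of these turned values passed the limma adjusted p.

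Replicate numbers did not pair the libraries, since the correlation of deviations of same-numbered libraries was -0.044 to 0.053 and 0 of 9 pairs were over 0.1. With the replicate block, 144, 6203 and 6688 genes were called in the 3 comparisons. Of the remaining alternative values, 169 of the counts and the 3 genes stayed within 1.5 times the count or within the spread between replicates, 514 of the other named genes kept direction and side of the threshold, 20 of the latter no longer passed and 5 newly passed. The depth behind each value is unknown, and values under 1 FPKM in libraries with 1 decimal rest on few steps.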
